A study of Rattus norvegicus with 63 samples.

Results

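Some microRNAs (miRNAs) are made mainly by leukocytes, and the liver levels of 5 miRNAs known from these cells were followed here across 15 compounds: rno-miR-142-3p, rno-miR-142-5p, rno-miR-223, rno-miR-150 and rno-miR-146a. They were chosen by name, from a list of 6 miRNAs known for their expression in blood and immune cells, and are 5 of the 350 rat miRNAs on the array. The sixth, rno-miR-155, is not named among the rat miRNAs of the array and was not analysed here. All 5 were detected on at least 1 array and so belong to the 162 miRNAs that were tested.

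A miRNA is a short RNA that lowers the output of messenger RNAs whose sequence pairs with its seed, the stretch near its 5′ end. Both miR-142 miRNAs are cut from the same hairpin, which is transcribed throughout the blood cell lineages, while miR-223 is a miRNA of neutrophils, monocytes and macrophages, and miR-150 one of mature lymphocytes and natural killer cells. miR-146a is induced by NF-kappaB and dampens Toll-like receptor signalling through Traf6 and Irak1, and is not limited to leukocytes. The liver holds resident macrophages (Kupffer cells) and lymphocytes at all times and takes up neutrophils and monocytes after injury.

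The mature sequences tell the 4 miRNAs apart and show where a close relative exists. RefSeq (build GRCr8) gave a mature sequence for 4 of the 5, with the seed, bases 2 to 8, in capitals below. The array names miR-223 and miR-146a without an arm, and the 3p arm of miR-223 and the 5p arm of miR-146a are shown, the arms these names stood for. miR-146b is added because it carries the same seed as miR-146a.
rno-miR-142-3p: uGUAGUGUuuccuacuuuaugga
rno-miR-142-5p: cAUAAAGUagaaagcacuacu
rno-miR-223: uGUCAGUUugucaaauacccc
rno-miR-146a: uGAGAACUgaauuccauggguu
rno-miR-146b: uGAGAACUgaauuccauaggcugu

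No other pair of these sequences has a seed in common, so both arms of miR-142 address different targets although they come from the same precursor. miR-146a and miR-146b are identical over their first 17 bases. Over the 22 bases compared they differ by the substitutions G18A and U21C, given as the miR-146a base, the position from the 5′ end and the miR-146b base, and miR-146b is 2 bases longer. Whether the array probes for miR-146a also bound miR-146b was not tested. The Mir142 gene lies on the plus strand at chr10:73055104-73055190 inside the annotated span of the protein-coding gene Tspoap1. Mir223 lies on the plus strand at chrX:65151383-65151492 and Mir146a on the minus strand at chr10:28349996-28350090, each inside the span of a gene annotated as a long non-coding RNA.

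Liver RNA of 63 male Wistar Hanover rats, aged 8 to 10 weeks when assigned to dose groups, had been hybridised to Agilent miRNA arrays in 1 colour, and each of the 21 groups held 3 rats with an array apiece. Per the study, the 3 arrayed rats of a treatment group were selected from a larger dose group for showing at least some liver changes in histopathology. The study asked whether short treatment with carcinogens leaves expression changes that tell carcinogens from non-carcinogens and genotoxic (GC) from non-genotoxic carcinogens (NGC). The 15 compounds were given daily by gavage, and each was compared with the vehicle control set its label names. The rats were caged singly and the labels number them within a group, so the replicates are separate animals.

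The rats of 2 GC groups, C.I. Direct Black (CIDB, 146 mg/kg/d) and dimethylnitrosamine (DMN, 4 mg/kg/d), were treated for 7 days and compared with corn oil set CO3, also given for 7 days. Cyproterone acetate (CPA, 100 mg/kg/d, 14 days) was compared with corn oil set CO4. Methylcellulose set MC1 served 6 compounds: acetamide (AA, 3000 mg/kg/d, 14 days), dehydroepiandrosterone (DHEA, 600 mg/kg/d, 14 days), methylcarbamate (Mcarb, 400 mg/kg/d, 14 days), methapyrilene HCl (MPy, 60 mg/kg/d, 7 days), thioacetamide (TAA, 19.2 mg/kg/d, 7 days) and Wy-14643 (Wy, 60 mg/kg/d, 3 days). Set MC2 served the non-carcinogens (NC) cefuroxime (CFX, 250 mg/kg/d, 14 days) and nifedipine (Nif, 3 mg/kg/d, 14 days). Set MC5 served diethylstilbestrol (DES, 10 mg/kg/d, 3 days), ethionine (ETH, 200 mg/kg/d, 14 days) and piperonyl butoxide (PBO, 1200 mg/kg/d, 3 days), and set MC6 served phenobarbital sodium (PB, 14 days, no dose in the labels). The labels give 14 days for CO4 and for every methylcellulose set. By these labels, compounds given for 3 or 7 days against these sets differ from their controls in duration too. The study's methods call the control groups time-matched, and which of both holds was not tested. Compounds that share a control set are not independent of each other.

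The arrays lay on 9 slides scanned on 3 days, and the groups were not spread evenly over them. DES, TAA and Wy share no scan day with their control sets. DMN, ETH, AA, DHEA, MPy, Nif and PB share a scan day but no slide with theirs. The median spot brightness per array ranged from 193.5 to 243.5 units on scan day 1, from 140 to 153.5 on day 2 and from 75 to 78 on day 3. Across the miRNAs detected on all arrays, 48 of the 63 columns of the authors' value table followed the array of the same rat, while the other 15 followed the array of another group. The DES and DHEA columns were exchanged against the arrays, and the columns of MC1, MC2 and MC5 followed the arrays of MC5, MC1 and MC2. Which of both carries the right label was not tested, so results on DES, DHEA and on compounds of these 3 control sets refer to arrays as they are filed. The columns of DMN, CIDB, CPA, PB and their control sets followed their own arrays.

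Levels are log2 spot brightness after quantile normalization, without background subtraction, so that even a miRNA that is not there has a level. The 188 miRNAs detected on no array set that baseline, with a median level per array of 7.39 to 7.41. rno-miR-142-3p lay well above it, between 8.06 and 9.32, and was detected on all 63 arrays. rno-miR-146a (7.90 to 9.02) and rno-miR-223 (7.71 to 8.35) were also detected on all 63. rno-miR-142-5p lay between 7.51 and 7.86 and was detected on 48 arrays, and rno-miR-150 lay between 7.45 and 7.62 and was detected on 51. Background is part of every level, and the closer a miRNA lies to the baseline, the less the same change in RNA moves its level. These last 2 miRNAs sat closest to the baseline. Folds given below are ratios of brightness that includes this background, not of RNA. Levels of different miRNAs come from different probes and were not compared with each other.

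**Figure D1:**
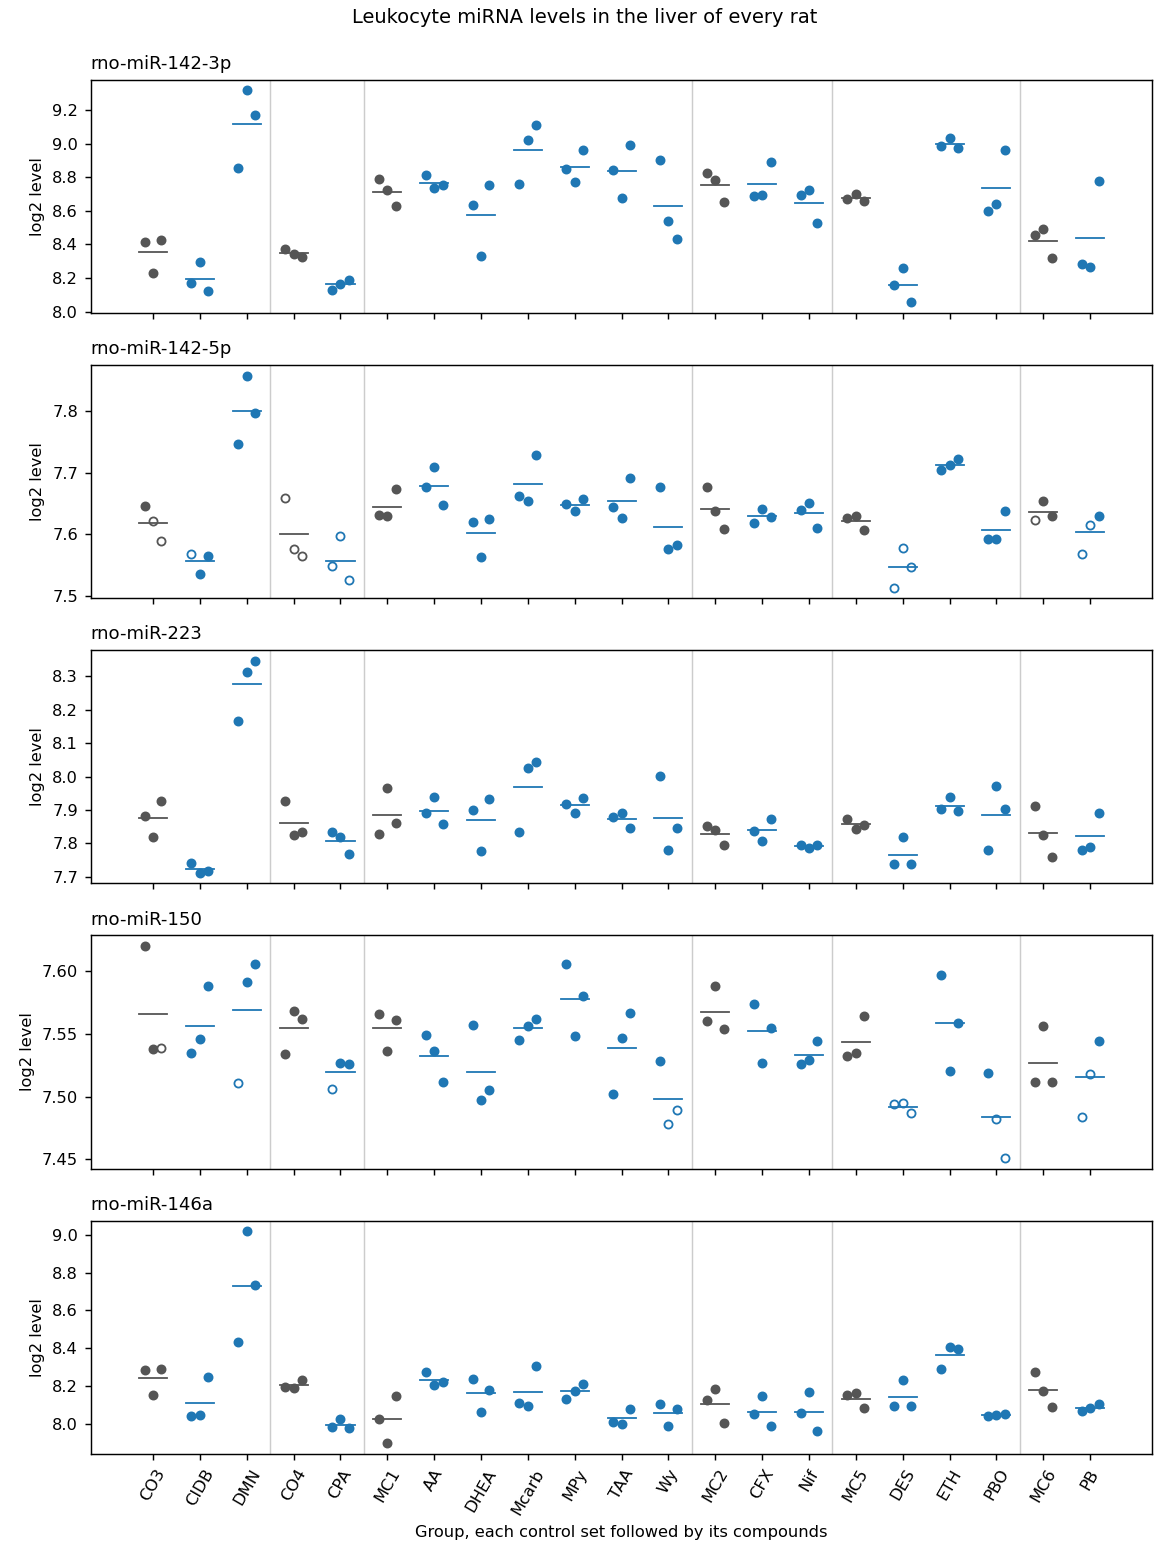
Log2 level (y axis) of the 5 leukocyte miRNAs in each of the 63 rats, with 1 panel per miRNA and the groups on the x axis. Grey marks are vehicle rats, blue marks treated rats, bars the group means, and open circles arrays on which the miRNA was not detected. The 3 DMN rats lie above the 3 CO3 rats for every miRNA except rno-miR-150.

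The group means of rno-miR-142-3p spanned 0.95 log2 units, the 7th widest span among the 162 miRNAs tested, for which the median span was 0.16. rno-miR-146a ranked 17th with 0.73 and rno-miR-223 ranked 29th with 0.55. rno-miR-142-5p ranked 69th with 0.25, and rno-miR-150 ranked 113th with 0.09. Dim miRNAs move less on this scale, so these ranks depend on brightness too. DMN was the highest of the 21 groups for rno-miR-142-3p, rno-miR-142-5p, rno-miR-223 and rno-miR-146a. The lowest group was DES for both miR-142 arms, CIDB for rno-miR-223 and CPA for rno-miR-146a.

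Most neighbours in these orders did not differ beyond their spread. Of the 20 steps between neighbouring groups, 1 exceeded the larger SD of both groups for rno-miR-142-3p, between CO4 (8.35 ± 0.021, SD, n = 3) and CIDB. For rno-miR-142-5p and rno-miR-223 the only such step was that from DMN to the next group, which was ETH and Mcarb respectively. For rno-miR-146a both the step from DMN (8.73 ± 0.292, SD, n = 3) to ETH (8.36 ± 0.0641, SD, n = 3) and that from ETH to CO3 exceeded the SD. No step did so for rno-miR-150.

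Over all 5 miRNAs and 15 compounds, 10 of 75 comparisons, or 13.3%, passed limma at an adjusted p under 0.05, 7 of them higher and 3 lower. Of all miRNAs tested over the same compounds, 14.3% passed, so the leukocyte miRNAs as a group did not change more often than the array as a whole. The changes fell on 4 compounds: 4 of the 5 miRNAs rose with DMN, 3 rose with ETH, 2 fell in the arrays filed as DES and 1 fell with CIDB.

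**Figure D2:**
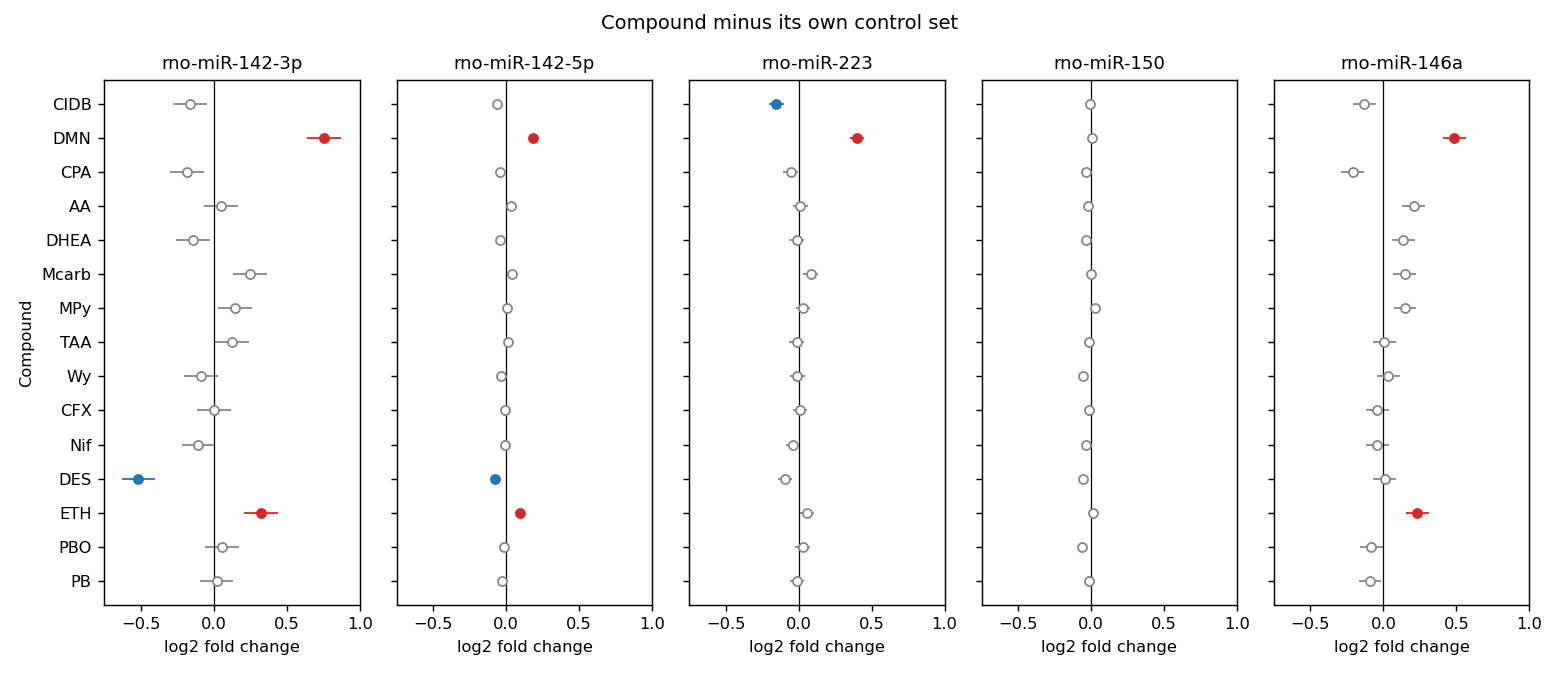
Log2 fold change (x axis) of each leukocyte miRNA for the 15 compounds (y axis), each against its own control set, with bars for the standard error of limma. Filled red points are called higher, filled blue points called lower (adjusted p under 0.05), and open points are not called. DMN stands at 0.76 for rno-miR-142-3p, and no compound is called for rno-miR-150.

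DMN, an alkylating hepatotoxin, gave the widest rise of the leukocyte miRNAs. With DMN, 4 of 5 leukocyte miRNAs were called, all higher, where 23.5% of all tested miRNAs were called. Their median change was 0.40 log2 units against -0.0044 over all miRNAs tested. rno-miR-150, the lymphocyte miRNA, was the one that did not pass.

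rno-miR-142-3p stood at 8.86, 9.32 and 9.17 in the 3 DMN rats and at 8.42, 8.23 and 8.43 in the 3 CO3 rats. Every DMN rat lay above every control rat, and the lowest DMN rat exceeded the highest control by more than the controls differed among themselves. The change was 0.76 log2 units (SE 0.116, adjusted p = 1.01e-06), a 1.69-fold higher level with a 95% interval of 0.52 to 0.99 on the log2 scale. The other 4 arrays on the DMN slide, 3 rats of MC6 and 1 of CIDB, lay between 8.17 and 8.49, also below every DMN rat. Without DMN rat 2, the highest, the change was 0.66.

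rno-miR-142-5p, the other arm of the same hairpin, stood at 7.75, 7.86 and 7.80 in the DMN rats and at 7.64, 7.62 and 7.59 in the CO3 rats. The groups did not overlap, and the DMN rats again kept the order of the 3p arm, with rat 2 highest and rat 1 lowest. The miRNA was well above background on 2 of the 3 DMN arrays and on 0 of the 3 CO3 arrays, so it was at least 1.12-fold higher with DMN. The bound takes the higher of the lowest well-measured signal and the dim level on each control array. The fit gave 0.18 log2 units (SE 0.0264, adjusted p = 3.89e-07).

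rno-miR-223, the myeloid miRNA, stood at 8.17, 8.31 and 8.35 in the DMN rats and at 7.88, 7.82 and 7.93 in the CO3 rats. These DMN rats were the 3 highest of all 63 rats for this miRNA, and the next highest rat, of Mcarb, stood at 8.04. The change was 0.40 log2 units (SE 0.0502, adjusted p = 1.78e-08), or 1.32-fold, with a 95% interval of 0.30 to 0.50. Its 2 probes gave 0.31 and 0.49.

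rno-miR-146a, the NF-kappaB-induced miRNA, stood at 8.43, 9.02 and 8.73 in the DMN rats and at 8.29, 8.15 and 8.29 in the CO3 rats. All DMN rats were above all controls, and rat 2, which had the highest rno-miR-142-3p, was again the highest. The change was 0.49 log2 units (SE 0.0781, adjusted p = 2.82e-06), or 1.40-fold. DMN rat 2 carried part of it, since the change without that rat was 0.34 and without rat 1 it was 0.63, both called. In a fit of the DMN and CO3 rats alone the adjusted p was 0.108, the only one of 14 ways of processing and fitting in which this call was lost.

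rno-miR-150 stood at 7.51, 7.59 and 7.61 in the DMN rats and at 7.62, 7.54 and 7.54 in the CO3 rats. The groups overlapped, and the change was 0.0037 log2 units (95% interval -0.042 to 0.049, adjusted p = 0.96). It was detected on 2 of 3 arrays in each group, close to the baseline. Of its 2 probes, 1 was well above background on 38 arrays and the other on 0.

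The size of the DMN changes differed between ways of processing. In the authors' value table rno-miR-142-3p rose by 1.20 log2 units with DMN, rno-miR-142-5p by 1.27, rno-miR-223 by 1.31 and rno-miR-146a by 1.03. There rno-miR-223 stood at 6.72, 7.15 and 7.18 in the DMN rats and at 5.69, 5.41 and 6.01 in the CO3 rats. The table's values are on a log2 scale whose centring is not stated, from 2.55 to 14.85 with column medians from 4.49 to 5.01. Centring alone would not alter a fold change, and why the changes were larger there was not tested. Over all 14 ways the change ran from 0.71 to 1.53 for rno-miR-142-3p, from 0.18 to 1.27 for rno-miR-142-5p, from 0.38 to 1.43 for rno-miR-223 and from 0.49 to 1.23 for rno-miR-146a. All DMN arrays lay on slide 2 and all CO3 arrays on slide 3. With slide as a block the changes were 0.71, 0.18, 0.38 and 0.69 in that order (limma adjusted p 0.042, 0.042, 0.0201 and 0.00508). rno-miR-142-3p, rno-miR-142-5p and rno-miR-223 were called in each of the 14, which include the values used here. Assigning arrays as in the value table could not alter these changes, since the DMN and CO3 columns followed their own arrays. A scan day block could not move their size either, as all of these arrays were scanned on day 1.

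**Figure D3:**
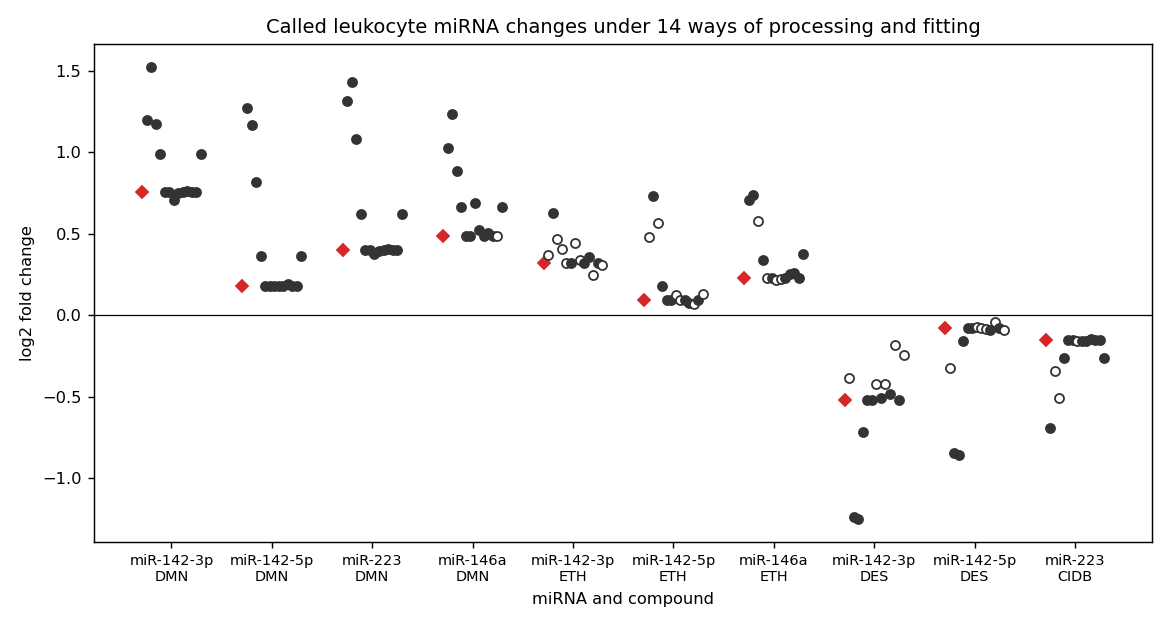
Log2 fold change (y axis) of the 10 called changes (x axis) under 14 ways of processing and fitting. The red diamond is the value given in the text, dark circles are the alternatives, and open circles are those with an adjusted p of 0.05 or more. The DMN changes lie between 0.18 and 1.53 with 1 open circle, while ETH, DES and CIDB carry 3 to 8 open circles each. Assigning arrays as in the value table could not move DMN or CIDB.

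Ethionine, an analogue of methionine that depletes hepatic ATP, was given for 14 days. With it 3 of the 5 leukocyte miRNAs rose, where 16% of all tested miRNAs were called. rno-miR-142-3p stood at 8.99, 9.03 and 8.98 in the ETH rats and at 8.67, 8.70 and 8.66 in the MC5 rats. The 3 ETH rats were nearly alike and all above the controls, with a change of 0.32 log2 units (SE 0.116, adjusted p = 0.0491). This call was lost when any 1 of the 6 rats was left out, with changes of 0.30 to 0.33, and held in 6 of 14 ways, over which the change ran from 0.25 to 0.63.

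rno-miR-142-5p stood at 7.70, 7.71 and 7.72 in the ETH rats and at 7.63, 7.63 and 7.61 in the MC5 rats. The groups did not overlap and differed by 0.09 log2 units (SE 0.0264, adjusted p = 0.012), a call that held in 8 of 14 ways and in 4 of 6 fits that left out 1 rat. Over the 14 ways its change ran from 0.07 to 0.73. rno-miR-146a stood at 8.29, 8.40 and 8.39 with ETH and at 8.15, 8.16 and 8.08 in the controls. It was 0.23 log2 units higher (SE 0.0781, adjusted p = 0.0368), called in 10 of 14 ways (changes over all 14 from 0.21 to 0.74) and in 1 of 6 fits that left out 1 rat.

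All ETH arrays lay on 1 slide and the MC5 arrays on other slides of the same day. The other 5 arrays on the ETH slide, 3 rats of MC2 and 2 of CFX, had rno-miR-142-3p between 8.65 and 8.83 and rno-miR-146a between 8.00 and 8.19. Every ETH rat lay above all of them for both miRNAs. With slide as a block the ETH changes were 0.44 for rno-miR-142-3p, 0.12 for rno-miR-142-5p and 0.21 for rno-miR-146a, with adjusted p of 0.734, 0.734 and 0.882. The 2 other leukocyte miRNAs were not called with ETH, with 0.05 for rno-miR-223 and 0.01 for rno-miR-150.

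The arrays filed as diethylstilbestrol, a synthetic oestrogen, held the lowest rno-miR-142-3p of all groups after 3 days. It stood at 8.16, 8.26 and 8.06, against 8.67, 8.70 and 8.66 in the MC5 rats, and fell by 0.52 on the log2 scale (SE 0.116, adjusted p = 0.000696). rno-miR-142-5p stood at 7.51, 7.58 and 7.55 against 7.63, 7.63 and 7.61 and fell by 0.08 (SE 0.0264, adjusted p = 0.0227). It was well above background on 0 of the 3 DES arrays and on all 3 MC5 arrays, so it was at least 1.00-fold lower, a bound that leaves the size of the fall unmeasured. So 2 of 5 leukocyte miRNAs were called, where 37% of all tested miRNAs were called, the highest share of any compound.

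Treatment and scan day cannot be told apart for DES, because all DES arrays were scanned on day 1 and all MC5 arrays on day 2. For rno-miR-142-3p the 9 vehicle rats scanned on day 1 (CO3, CO4 and MC6) lay between 8.23 and 8.49 and the 9 scanned on days 2 and 3 (MC1, MC2 and MC5) between 8.63 and 8.83, with no overlap. CO3 and CO4 were given corn oil and the other sets methylcellulose, so vehicle and scan day largely coincide in these rats. MC6, the methylcellulose set of day 1, lay between 8.32 and 8.49. The TAA and Wy rats, also scanned on day 1 but on another slide, lay between 8.43 and 8.99. The 3 CO3 rats on the slide of the DES arrays lay between 8.23 and 8.43, next to the DES rats. With scan day as a block the fall was not called (-0.42, adjusted p = 0.115). With arrays assigned as the value table has them, the fall of -0.52 belonged to DHEA and DES differed by -0.18 (adjusted p = 0.357). Over the 14 ways the DES change ran from -1.25 to -0.18 for rno-miR-142-3p, called in 9, and from -0.85 to -0.04 for rno-miR-142-5p, called in 8. rno-miR-223 and rno-miR-146a were not called in DES, with -0.09 and 0.0079, and neither was rno-miR-150, which was not well above background on any DES array.

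CIDB, an azo dye, is the other genotoxic carcinogen and shares its control set with DMN. rno-miR-223 stood at 7.74, 7.71 and 7.72 in the CIDB rats and at 7.88, 7.82 and 7.93 in the CO3 rats, with no overlap. It fell by 0.15 on the log2 scale (SE 0.0502, adjusted p = 0.0259), the only one of 5 called, where 20.4% of all miRNAs were called. The call held in 11 of 14 ways (changes over all 14 from -0.69 to -0.15) but in only 2 of 6 fits that left out 1 rat. The changes of the other 4 ranged from -0.16 for rno-miR-142-3p to -0.0095 for rno-miR-150 and were not called.

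In the other 11 compounds no leukocyte miRNA was called with the values used here, though some were under other ways of processing. CPA held the lowest rno-miR-146a, at 7.98, 8.03 and 7.98 against 8.19, 8.19 and 8.23 in CO4, all 6 arrays on the same slide. These groups did not overlap, and the difference of -0.21 log2 units (SE 0.0781) missed the threshold in the fit over all arrays (adjusted p = 0.109) but was called in 4 of 14 ways (changes over all 14 from -0.73 to -0.21), with an adjusted p of 0.00545 in the fit of both groups alone. rno-miR-142-3p stood at 8.13, 8.17 and 8.19 with CPA and at 8.37, 8.34 and 8.33 in CO4, also without overlap, and its difference of -0.19 (adjusted p = 0.395) was called in 1 of 14 ways. CPA had 0 of 5 leukocyte miRNAs called, with 5.56% of all miRNAs called.

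For rno-miR-150 the highest group was MPy, at 7.61, 7.55 and 7.58 against 7.57, 7.54 and 7.56 in MC1, and these groups overlapped. The lowest was PBO, at 7.52, 7.48 and 7.45 against 7.53, 7.54 and 7.56 in MC5, with no overlap and a difference of -0.06 (adjusted p = 0.0881). It was not well above background on any PBO array. Its 15 changes ran from -0.06 to 0.02, and none was called with the values used here. Under other ways of processing rno-miR-150 was called lower in DES in 5 of 14, in PBO in 4, in Wy in 3 and in DHEA in 2, and higher in MPy in 1.

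Most of the higher calls gained elsewhere came from the processed signal scaled over probes whose miRNA was detected on every array. There rno-miR-146a was called higher with AA (0.86), MPy (0.83), DHEA (0.66) and Mcarb (0.65), rno-miR-142-5p with AA (0.55), TAA (0.54) and MPy (0.47), and rno-miR-223 (0.52) and rno-miR-150 (0.34) with MPy. All of these compounds were compared with the same MC1 rats, so these calls are not independent. With the values used here, MC1 had the lowest mean rno-miR-146a of the control sets (8.02). In the value table DHEA was called lower for rno-miR-142-3p (-0.99), rno-miR-142-5p (-0.69) and rno-miR-150 (-0.43), in columns that followed the arrays filed as DES.

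With the values used here, the highest change with AA was 0.21 for rno-miR-146a (adjusted p = 0.067), where 13.6% of all miRNAs were called. With DHEA (18.5% called) the changes ran from -0.14 to 0.14, with MPy (18.5%) from 0.0029 to 0.15, and with Mcarb (1.85%) from 0.00036 to 0.25. With TAA, a hepatotoxin given for 7 days, they ran from -0.02 to 0.12, where 21.6% of all miRNAs were called. With Wy, a peroxisome proliferator, they ran from -0.09 to 0.03, where 25.9% of all miRNAs were called. PBO (8.64% called) gave -0.08 to 0.06 and PB (3.09%) gave -0.09 to 0.02. For the non-carcinogens CFX and Nif, limma called 0 of 162 miRNAs (0%) in each, with 1 and 20 miRNAs at an unadjusted p under 0.05, none of them a leukocyte miRNA.

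The study compares classes of compounds, so the mean change of each leukocyte miRNA was also compared between classes, with the compound as the unit. CPA, TAA and Wy, whose class the study left undefined, did not enter, which left 8 NGC, 2 GC and 2 NC compounds. No difference passed among 15 comparisons of 5 miRNAs in 3 contrasts, carcinogens against NC, NGC against GC and NGC against NC (two-sided exact permutation p from 0.311 to 0.844, lowest adjusted value 0.81). The smallest p these designs allow is 0.0152 for the first contrast and 0.0222 for the others, so that no single comparison could pass alone after adjustment over the 15, and the result says little about whether classes differ. Both NC compounds share set MC2 and both GC compounds set CO3, so class and control set cannot be told apart there and the compounds are not independent. Both GC compounds differed in direction, with rno-miR-223 called at 0.40 with DMN and at -0.15 with CIDB.

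miRNAs of other cells were read beside these changes, from lists chosen with earlier results known. Among 7 further miRNAs linked to immune cells that were tested, of 11 listed, 4 were called higher with DMN: miR-21 by 0.30, miR-27a by 0.20, miR-146b by 0.13 and miR-342-3p by 0.09. Over all 162 miRNAs tested, 22 were called higher and 16 lower with DMN, 23.5% in all. miR-24 was called lower, at -0.15. miR-146b, the relative of miR-146a with the same seed, was detected on only 3 of 63 arrays, and miR-342-3p on 15.

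Of the miRNAs of stellate and smooth muscle cells, 3 of 4 tested were among the 16 called lower with DMN: miR-143 at -0.33, miR-199a-3p at -0.24 and miR-199a-5p at -0.06. The endothelial miR-126 was called lower at -0.18 and the hepatocyte miR-122 at -0.09, while miR-192 and miR-194 were not called. miR-144 and miR-451, which mark red blood cells, were not called, at -0.09 each. Their summed level, the log2 of their added brightness, ran from 9.55 to 10.42 in the DMN rats and from 9.83 to 10.55 in the CO3 rats, and these ranges overlap. The summed level of the 3 hepatocyte miRNAs ran from 14.62 to 14.75 with DMN and from 14.71 to 14.81 in CO3. In whole liver, more cells of a type and more RNA per cell cannot be told apart, and the part of these other cells in the leukocyte changes was not tested.

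With ETH the related miR-23a was called higher at 0.20 and miR-143 at 0.19, while the hepatocyte miRNAs miR-192 and miR-194 were called lower at -0.66 and -0.55. The hepatocyte miR-122 was not called, at 0.0017. miR-144 and miR-451 were not called, at -0.07 and -0.15. In the arrays filed as DES, where 26 of all 162 miRNAs were called lower, 4 of the 7 related miRNAs were among them: miR-24 at -0.23, miR-21 at -0.22, miR-23a at -0.21 and miR-27a at -0.20. There the endothelial miR-126* was called lower at -0.09, while miR-126 was not called, at 0.13. The hepatocyte miR-192 was called higher at 0.26, while miR-122 and miR-194 were not called, at -0.05 and -0.14. The red blood cell miRNAs were not called in DES, at -0.27 for miR-144 and -0.42 for miR-451, with summed levels of 9.30 to 9.94 against 9.81 to 10.40 in MC5.

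With CIDB, miR-21 was called higher at 0.70, and the hepatocyte miRNAs miR-192 and miR-122 were called lower at -0.50 and -0.33, in a comparison with 21 higher and 12 lower calls among 162. The summed level of the hepatocyte miRNAs ran from 14.33 to 14.60, below the 14.71 to 14.81 of CO3. miR-451 and miR-144 were not called, at -0.67 and -0.32, with summed levels of 9.29 to 9.94 against 9.83 to 10.55 in CO3. The part of these in the lower rno-miR-223 of CIDB was not tested.

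**Figure D4:**
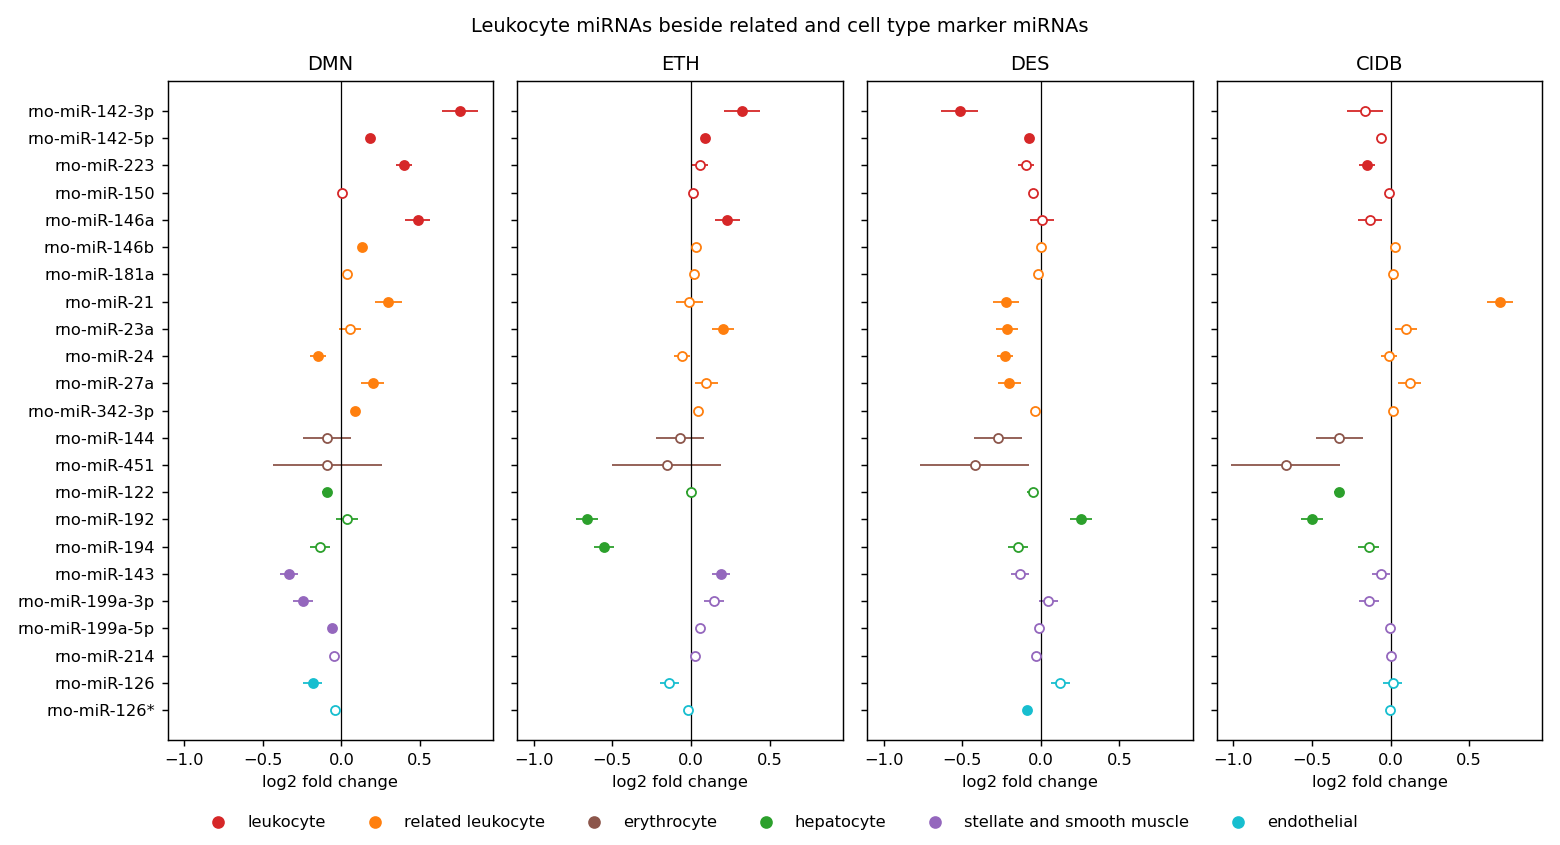
Log2 fold change (x axis) of the leukocyte miRNAs (red), related leukocyte miRNAs and marker miRNAs of other cells (y axis) with DMN, ETH, DES and CIDB. Bars are standard errors and filled points are called. With DMN the red points reach 0.76 while miR-143 lies at -0.33.

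Likeness over the groups was uneven among the leukocyte miRNAs. Over the 21 group means the miRNAs most like rno-miR-142-3p were rno-miR-142-5p (Pearson r = 0.87), rno-miR-223 (0.70) and miR-27a (0.70). Those most like rno-miR-142-5p were rno-miR-142-3p, rno-miR-223 (0.87) and miR-342-3p (0.80). For rno-miR-223 they were rno-miR-142-5p, rno-miR-146a (0.82) and miR-146b (0.78), and for rno-miR-146a they were rno-miR-223, miR-301a (0.79) and miR-146b (0.79). For rno-miR-150 they were miR-342-3p (0.77), miR-27a (0.72) and miR-23a (0.72), none of the other four, with which its r was 0.35 to 0.50. Between rno-miR-142-3p and rno-miR-146a r was 0.43.

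Some of these values rested on DMN. Without it, over 20 groups, r between both miR-142 arms was 0.89 and between rno-miR-142-5p and rno-miR-223 it was 0.75. Between rno-miR-223 and rno-miR-146a it dropped to 0.35, between rno-miR-142-3p and rno-miR-146a to 0.19, between rno-miR-146a and miR-301a to 0.30 and between rno-miR-223 and miR-146b to 0.10. After the group means were taken out, r over the 63 rats was 0.61 for both miR-142 arms and 0.38 for rno-miR-223 with rno-miR-146a. These groups share control rats, slides and the normalization, and the values describe these arrays only.

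**Figure D5:**
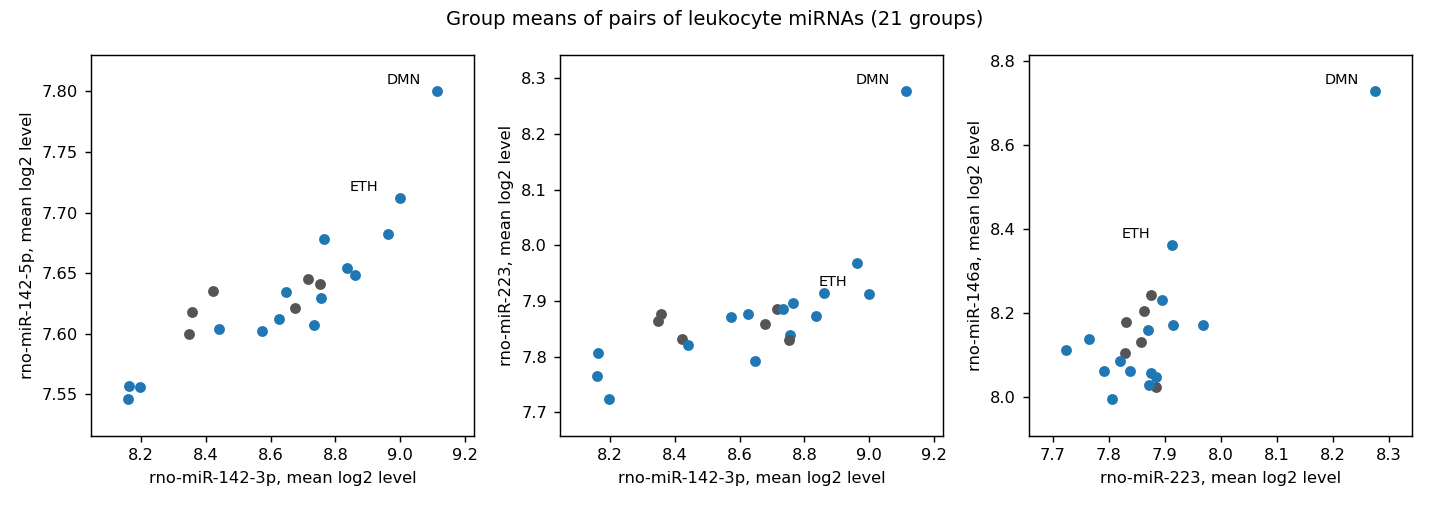
Mean log2 levels of pairs of leukocyte miRNAs in the 21 groups (each axis 1 miRNA, grey for vehicle sets, blue for compounds). DMN lies at the top right of each panel, at 9.11 for rno-miR-142-3p, 7.80 for rno-miR-142-5p, 8.28 for rno-miR-223 and 8.73 for rno-miR-146a.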

How the data were processed

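Single-colour arrays of 63 rat livers were analysed. Per the file headers, the deposited scanner files hold spot intensity (mean and processed signal, local background) with marks for outliers and detection. The deposited value table holds the authors' log2 values of 135 miRNAs, made by RMA without background correction per the methods.

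Here the mean signal was used, after leaving out flagged spots (2.87%), with quantile normalization, averaging of a probe's spots, log2 and median polish over probes. The 162 of 350 miRNAs detected on at least 1 array entered 1 linear model over the 21 groups (limma 3.58.1, R 4.3.3), each compound against the control set in its label. p-values were adjusted by Benjamini-Hochberg over the 162, two-sided. "Called" means an adjusted p under 0.05. On simulated data with 40 changed miRNAs, 40 were recovered for DMN among 40 calls and 40 for PB among 44 calls. Recovery at the smaller sizes called in these livers was not tested, nor was recovery with slide or scan day differences. Precision is limited by 3 rats a group and by signal over background for dim miRNAs.

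The members, lists and tests were chosen with earlier results of these data known. Named are all members, with each compound in which they are called, their highest and lowest compound and its rats, the 3 miRNAs most like each, and the list miRNAs called where at least 2 members are. The 14 ways of processing and fitting comprise the one above, the authors' value table, the processed signal scaled to its 75th percentile, taken over probes whose miRNA was detected on every array or over the full set, background correction by normexp (offset 50), the detection filter dropped or made stricter, a fixed and a random slide block, a scan day block, a control group pooled over the vehicle's sets, arrays assigned as in the value table, only the groups compared, and normexp with that assignment. The last was chosen after seeing the data. Each rat was also left out in turn.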

Additional observations from a re-analysis of the deposited data

How the results depend on the processing

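The count of 7 higher calls became 16 with the processed signal scaled over probes whose miRNA was detected on every array. The added calls fell on AA, DHEA, Mcarb, MPy and TAA, all compared with set MC1. The count was 4 with that signal scaled over all probes, and 4 with slide as a fixed and 4 as a random block. Leaving out 1 rat gave 4 to 8. The count of 3 lower calls became 6 in the authors' value table, 5 with the processed signal scaled in that first way, 5 with normexp, 0 with slide as a block, 1 with scan day as a block, 7 against controls pooled over the vehicle's sets, 7 with only the groups compared, 5 with normexp and arrays assigned as in the value table, and 5 with the second probe of each miRNA alone. Leaving out 1 rat gave 2 to 6. With that assignment of arrays the NGC against NC difference of rno-miR-223 was 0.10 (exact permutation p = 0.0444, adjusted limma p = 0.958). Of the log2 fold changes of the 5 miRNAs under the alternatives, 1482 kept their side of the threshold, 58 lost it, 45 gained it, and no called change turned its direction. Most of the 1482 belong to changes that were not called to begin with, while all 58 losses fall on the 10 called changes. Over the 14 ways the called DMN changes held in 13 or 14, and those of ETH, DES and CIDB in 6 to 11. These counts are not like for like. Assigning arrays as in the value table could alter the ETH and DES changes but not those of DMN and CIDB. Replicate numbers of PB and CPA also occur in MC6 and CO4, but same-numbered rats did not deviate together (r from -0.258 to 0.045), so they share only a number. With replicate number as a block, rno-miR-142-3p changed by 0.02 with PB and by -0.19 with CPA, and 0 miRNAs were called in each, against 0 and 9 on the same arrays without the block. Causes of these shifts were not tested. Background limits the sizes given for all 5 miRNAs, most for the dim rno-miR-142-5p and rno-miR-150.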
